A study of Mus musculus with 34 samples.

Results

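The mRNA levels of 9 genes of the BCL2 family were compared between E11.5 limb buds that lack *Hnrnpk* and WT limb buds. The members were the rows of the deposited expression table whose gene symbol was on a given list, which leaves out the family genes best known as direct targets of p53, and all 9 were found among the 22040 genes of the table. Of the members, 4 keep cells alive (*Bcl2*, *Bcl2l1*, *Bcl2l2* and *Mcl1*, called survival members here) and 5 promote death (*Bak1*, *Bok*, *Bid*, *Bad* and *Bcl2l11*, called death members here). The products of this family decide on death through the mitochondria. The comparison asks whether the balance of these 9 members was shifted at the RNA level in limb buds whose apoptosis the study also examined.

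RNA-seq was done on 3 WT and 3 CKO libraries of limb bud cells, deposited as biological replicates. The CKO embryos were *Prrx1-Cre;Hnrnpk fl/fl*, with loxP sites around a stretch of exons, and the WT group is labelled Hnrnpk WT, without a statement on whether these embryos carried floxed alleles or Cre. Prrx1-Cre is active in limb bud mesenchyme, later in the hindlimb than in the forelimb, and not in blood, vessel or ectoderm cells, so a library of limb buds also holds cells that keep the gene. Embryos of both sexes were used, and the sources used here do not say how many embryos, or which of the forelimb and hindlimb buds, went into a library. No other agent or allele is given for these groups. Since the samples are bulk tissue, fewer cells of a type and less RNA per cell cannot be told apart.

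Levels are given as FPKM, the fragments on a gene scaled to the length of its exons and to a total for its library, so levels of different genes can be set side by side. Differences are CKO minus WT means of log2(FPKM + 0.1), on which a small constant makes low genes look slightly less changed. They were tested with limma over the 12305 genes whose FPKM averaged 0.5 or more in the 6 libraries, and p values were adjusted by Benjamini-Hochberg over all of them. All 9 members passed this filter.

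Between 17140869 and 24624434 reads fell on the listed genes of a library. These were 1.11 and 1.03 times the number that the FPKM of CKO replicates 2 and 3 were divided by, and 0.947 to 0.968 times it in the other libraries, and no source used here says what that number is. Median-ratio factors, which compare the deposited levels of typical genes, lay between 0.983 and 1.01 in all libraries. The targeted gene, *Hnrnpk*, was measured at 185 to 195 FPKM in the WT libraries and at 127 to 142 FPKM in the CKO libraries, without overlap. The difference was -0.50 (SE 0.13, adjusted p = 0.334 in limma, exact permutation p = 0.1), and reads on exons outside the deleted stretch are part of the value. The first principal component (52.6% of the variance of log2 values) set replicate 1 of both groups apart from replicates 2 and 3, and the second (26.0%) separated WT from CKO. All 9 limb mesenchyme markers were above 0 in every library, 7 of them with a lower mean in CKO. The 13 genes of an erythroid list took 11.9% to 32.7% of the summed FPKM, with the lowest share in CKO replicate 1 and the highest in CKO replicate 2, and all 13 had a higher mean in CKO. Their summed level ranged from 38032 to 64273 FPKM in WT and from 31048 to 143414 FPKM in CKO, and none of the 13 was at 0. Muscle precursor, neural crest, ectoderm and macrophage markers had a higher mean in CKO for 4 of 4, 3 of 3, 6 of 7 and 8 of 9 tested genes, and endothelial markers for 0 of 7. None of these lists had a member past the adjusted threshold in this fit. With the replicate number as a block, 1 marker passed, the forelimb gene *Tbx5* of the mesenchyme list, which was lower in CKO (difference -0.93, adjusted p = 0.358 without and 0.0073 with the block) and is named here after its values were seen.

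Proteins of the BCL2 family meet at the outer membrane of the mitochondrion. Survival members bind and hold back the effectors BAX and BAK, which otherwise open pores that let cytochrome c out and start the caspase cascade. Another class, the BH3-only proteins such as BIM, BID and BAD, senses stress and either occupies the survival members or activates the effectors. The family is regulated strongly after transcription, by phosphorylation, cleavage and protein turnover, so the RNA level is one layer of it. In the developing limb, apoptosis shapes the digits and removes the tissue between them.

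Promoter sequences are shown for the members with the largest negative and the largest positive difference, *Bcl2* and *Bcl2l11*. Matches to 3 short motifs were searched on both strands in RefSeq promoter windows of 300 bases (GRCm38.p6), of which 32851 were at hand, 13 of them for the 9 members. They were the CT element CCCTCCCC, a C-rich sequence of the kind that hnRNPK is known to bind, the GC box core CCCGCCC, which is bound by Sp1 and related factors, and the consensus half-site of p53. The 250 bases before the start are printed 5′ to 3′ on the strand of the gene, with matches to the CT element and the GC box core on either strand in capitals.

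The *Bcl2* window was chr1:106714291-106714540 on the minus strand, and the *Bcl2l11* window was chr2:128125788-128126037 on the plus strand.
Bcl2: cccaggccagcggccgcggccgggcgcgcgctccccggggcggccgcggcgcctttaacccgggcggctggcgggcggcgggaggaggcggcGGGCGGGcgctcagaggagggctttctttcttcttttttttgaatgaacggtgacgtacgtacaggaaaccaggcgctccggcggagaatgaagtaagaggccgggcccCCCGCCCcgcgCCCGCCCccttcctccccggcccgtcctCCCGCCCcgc
Bcl2l11: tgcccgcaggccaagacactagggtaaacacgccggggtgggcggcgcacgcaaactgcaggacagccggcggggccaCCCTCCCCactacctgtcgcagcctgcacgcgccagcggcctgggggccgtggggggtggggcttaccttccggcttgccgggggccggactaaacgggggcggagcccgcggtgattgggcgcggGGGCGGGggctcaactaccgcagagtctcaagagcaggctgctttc

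The *Bcl2* window held 4 matches to the GC box core and none to the CT element, while the first of the *Bcl2l11* windows held 1 match to each. Over all members, the CT element was found in the windows of 2 genes, *Bcl2l11* and *Bcl2l2*, and in those of 12.0% of all 27025 genes. The GC box core was found for 6 members (*Bcl2*, *Bcl2l2*, *Mcl1*, *Bid*, *Bad* and *Bcl2l11*) and for 27.9% of all genes. The half-site of p53 was found for no member and for 9.55% of all genes. Of the p53 targets described below, the window of *Bax* held 1 and the 3 windows of *Bbc3* held none, and no window was at hand for *Pmaip1*. These matches describe letters in a window and were not tested against the expression values.

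None of the 9 members passed an adjusted p of 0.05 in limma, where 0.0650% of all genes tested did, and voom on recovered reads also called 0. At an unadjusted p under 0.05 the count was 1 of 9, *Bcl2*, beside 8.31% of all genes. *Bcl2* was also the single member whose CKO and WT values did not overlap, which was so for 14.5% of all genes. For 9 members either share comes to about 1 gene, so neither count sets the members apart from other genes. Of the members, 4 had a higher and 5 a lower mean in CKO, signs that turned for *Bak1*, *Bcl2l2* and *Mcl1* under another scaling, and the median difference was -0.01, beside 0.0048 for all genes tested.

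**Figure D1:**
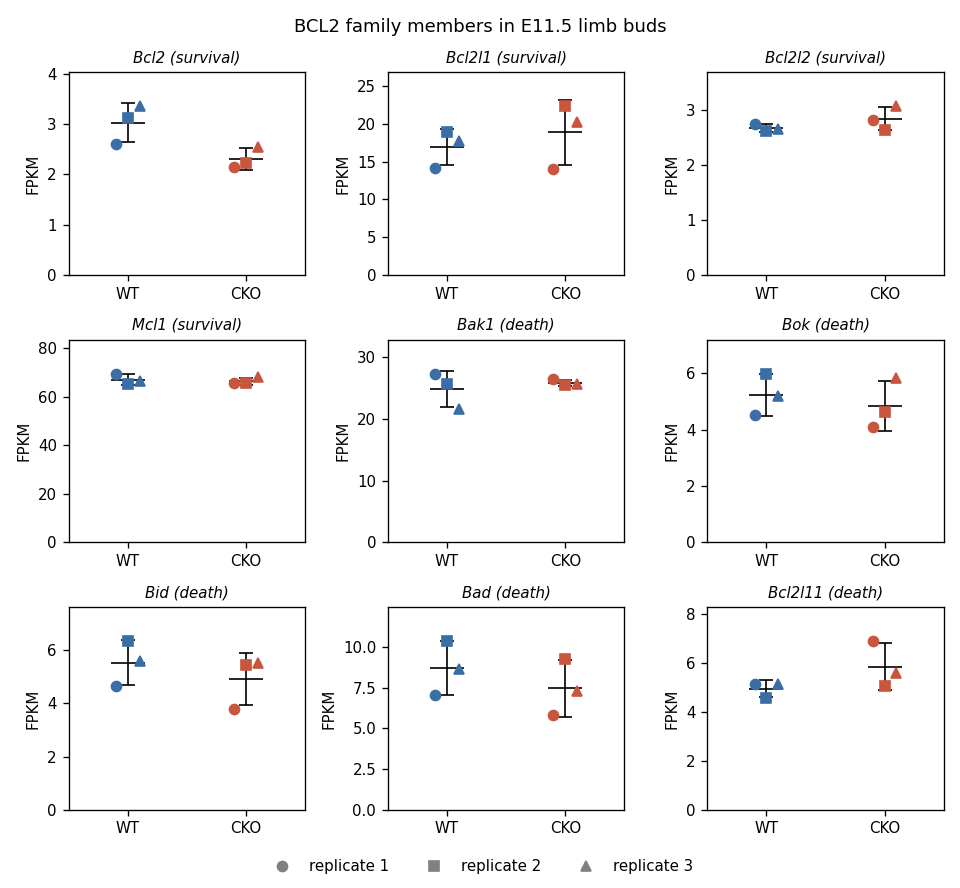
FPKM of the 9 members in the 3 WT (blue) and 3 CKO (red) libraries, with the marker shape giving the replicate number and black bars the mean ± SD (n = 3). Each axis starts at 0, and *Bcl2* is the member whose CKO values, 2.14 to 2.54, all lie below the WT values, 2.61 to 3.35.

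The survival members spanned a wide range of levels. *Mcl1*, which encodes a short-lived protein that many embryonic cells depend on, was far above the others at 67.1 ± 2.28 FPKM in the WT and 66.4 ± 1.51 FPKM in the CKO libraries (mean ± SD, n = 3 per group). *Bcl2l1*, which encodes BCL-XL, followed at 17.0 ± 2.44 and 18.9 ± 4.32 FPKM. *Bcl2* and *Bcl2l2*, which encodes BCL-W, lay at about the same low level, with means of 3.03 and 2.67 FPKM in WT, and their WT values overlapped. In CKO, the values of *Bcl2* lay below those of *Bcl2l2*, so the order of these genes was the reverse of that of the WT means. *Mcl1* alone made up 70.6% to 78.1% of the summed FPKM of the survival members in a library, against 2.40% to 3.72% for *Bcl2*.

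*Bcl2*, the founding member, whose protein holds back the effectors and BIM, was measured at 2.61, 3.12 and 3.35 FPKM in WT replicates 1, 2 and 3. In CKO replicates 1, 2 and 3 it was measured at 2.14, 2.22 and 2.54 FPKM. The highest CKO library thus lay just below the lowest WT library, and replicate 1 was the lowest library of each group. The difference was -0.38 (SE 0.15, 95% interval -0.73 to -0.02), a ratio of 0.770 between CKO and WT, with an unadjusted p of 0.0399 and an adjusted p of 0.564 in limma. The exact two-sided permutation test gave p = 0.1, the smallest that 3 against 3 libraries allow. Between 355 and 684 reads stood behind these values.

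The gene lies on the minus strand of chromosome 1, at 106538178 to 106714274 (GRCm38), and 558 bases of its exons are shared with the antisense transcript *D630008O14Rik*. The library kit keeps the strand, but the strand setting of the counting is not given in the sources used here, so reads of the antisense transcript may be part of the value. Within each replicate number, *Bcl2* was lower in the CKO library, with differences of -0.27, -0.47 and -0.39 for numbers 1, 2 and 3. With the replicate number as a block its unadjusted p was 0.0164 and its adjusted p 0.165, against 18.4% and 2.81% of all genes past 0.05 on these measures. When replicate 1 of both groups was left out, a choice made after the data were seen, the difference was -0.43 with an adjusted p of 0.0537, at which 15.0% of all genes but no member passed 0.05. The direction was the same under all 19 alternatives, with adjusted p values between 0.0537 and 1.0. Those that changed only the filter or the variance estimate, or added the block to the main fit, could not change the direction. The unadjusted p went past 0.05 when WT replicate 2 (0.110), WT replicate 3 (0.150), CKO replicate 1 (0.0870) or CKO replicate 2 (0.0882) was left out and with quantile normalization (0.0577).

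The tested genes most like *Bcl2* across the 6 libraries were *Tmem65*, *Snx24* and *Rtl8a*, by the root mean square difference of log2 values centred on each gene's mean (0.046, 0.047 and 0.048). *Tmem65* encodes a membrane protein of mitochondria, *Snx24* encodes a sorting nexin, and *Rtl8a* is derived from a retrotransposon. *Tmem65* was measured at 5.23, 6.67 and 6.54 FPKM in WT and at 4.59, 4.57 and 5.33 FPKM in CKO. Like *Bcl2*, it was lowest in replicate 1 among the WT libraries, but CKO replicate 3 lay just above that library.

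*Bcl2l1* was measured at 14.2, 18.9 and 17.8 FPKM in WT replicates 1 to 3. In CKO replicates 1 to 3 it was measured at 14.0, 22.4 and 20.3 FPKM. The groups overlapped, with replicate 1 low in both, while CKO replicates 2 and 3 lay above all WT libraries. The difference was 0.14 (SE 0.20, 95% interval -0.32 to 0.60, adjusted p = 0.896 in limma), and it was 0.22 with an adjusted p of 0.261 in replicates 2 and 3 alone. The gene, on the minus strand of chromosome 2 at 152780668 to 152831728, shares no exon with another annotated gene.

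*Bcl2l1* is also known as the survival gene of maturing red cells, and the libraries ordered by the erythroid list had nearly the same order as by *Bcl2l1*. From the lowest to the highest erythroid share of summed FPKM (11.9%, 13.9%, 19.6%, 20.8%, 23.7% and 32.7%), *Bcl2l1* was measured at 14.0, 14.2, 18.9, 17.8, 20.3 and 22.4 FPKM. The 2 lowest points are replicate 1 of CKO and WT and the 2 highest are CKO replicates 3 and 2, so the order runs across the groups. The first principal component (52.6% of the variance) set the libraries in nearly the same order, so this order is not particular to these genes. The erythroid share and the *Bcl2l1* level also have the library and its scaling in common. The part of red cells in the *Bcl2l1* values was not tested. When the libraries were rescaled to the same summed FPKM without the erythroid list, the difference of *Bcl2l1* was 0.03, while the median of all genes moved to -0.10.

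**Figure D2:**
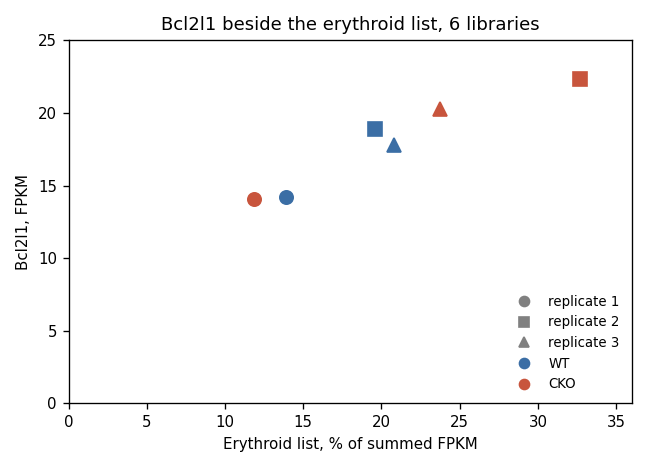
*Bcl2l1* level (FPKM) against the share of the 13 erythroid genes in the summed FPKM (%) for each of the 6 libraries, with colour for the group and marker shape for the replicate number. The points run from CKO replicate 1 (11.9%, 14.0 FPKM) to CKO replicate 2 (32.7%, 22.4 FPKM), with the WT libraries between them.

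*Mcl1* and *Bcl2l2* differed least among the survival members. *Mcl1*, on the plus strand of chromosome 3 at 95658788 to 95663176, was measured at 69.6, 65.2 and 66.4 FPKM in WT and at 65.6, 65.5 and 68.2 FPKM in CKO. All CKO values lay within the WT range. The difference was -0.01 (SE 0.11, adjusted p = 0.985), and its 95% interval, -0.27 to 0.24, gives the size of change that these libraries could not tell from none. With median-ratio scaling between libraries it was 0.0031. This was the steadiest member, with a ratio of 1.07 between the highest and the lowest of the 6 libraries, against 1.18 to 1.78 for the others.

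*Bcl2l2* was measured at 2.75, 2.61 and 2.65 FPKM in WT and at 2.82, 2.65 and 3.07 FPKM in CKO. The groups overlapped at the level of CKO replicate 2, and the difference was 0.09 (SE 0.13, 95% interval -0.21 to 0.39, adjusted p = 0.904), or -0.015 when the libraries were rescaled without the erythroid list. Its exons, on the plus strand of chromosome 14 between 54883377 and 54888234, share 594 bases with the protein-coding gene *Gm20521* on the same strand, which is also in the table, so reads may have been split between them or dropped.

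Among the death members, the effectors stood at different levels. *Bak1*, which encodes the pore-forming effector BAK, was the most abundant death member, with 46.8% to 56.2% of their summed FPKM in a library. It was measured at 27.4, 25.7 and 21.6 FPKM in WT and at 26.4, 25.5 and 25.7 FPKM in CKO. The CKO values lay within the WT range, which was widened by WT replicate 3. The difference was 0.06 (SE 0.12, 95% interval -0.23 to 0.35, adjusted p = 0.925), and it was negative without WT replicate 3 (-0.035) and when the libraries were rescaled without the erythroid list (-0.043).

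*Bok*, which encodes an effector that does not depend on the survival members in the same way as BAK, was measured at 4.52, 5.99 and 5.18 FPKM in WT and at 4.08, 4.63 and 5.83 FPKM in CKO. The groups overlapped over most of their range, and the difference was -0.11 (SE 0.17, 95% interval -0.52 to 0.29, adjusted p = 0.904). Between 136 and 264 reads stood behind these values, the fewest of any member. *Bak1* lies on the minus strand of chromosome 17 at 27019810 to 27029009 and *Bok* on the plus strand of chromosome 1 at 93685660 to 93695764. Up to 437 exon bases of *Bak1* are shared with *Ggnbp1* on the opposite strand.

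The BH3-only members differed in direction, and none passed the test. *Bcl2l11*, which encodes BIM, a strong activator of the effectors and a binding partner of all survival members, was measured at 5.15, 4.55 and 5.12 FPKM in WT. In CKO it was measured at 6.90, 5.05 and 5.56 FPKM. CKO replicate 1 was the highest library, and CKO replicate 2 lay between the WT libraries, so the groups overlapped. The difference, the largest positive one among the members, was 0.23 (SE 0.15, 95% interval -0.12 to 0.57, adjusted p = 0.751). It was positive within each replicate number, at 0.41, 0.15 and 0.12, and with the replicate number as a block the unadjusted p was 0.0785 and the adjusted p 0.327. *Bcl2l11* lies on the plus strand of chromosome 2 at 128126038 to 128162547 and shares no exon with another annotated gene.

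*Bad*, whose protein occupies BCL2, BCL-XL and BCL-W when growth factor signals stop, was measured at 7.05, 10.4 and 8.66 FPKM in WT and at 5.81, 9.26 and 7.27 FPKM in CKO. The groups overlapped, with replicate 1 lowest and replicate 2 highest in each. The difference was -0.23 (SE 0.21, 95% interval -0.71 to 0.25, adjusted p = 0.837). It was negative within each replicate number, at -0.27, -0.16 and -0.25, and with the replicate block its unadjusted p was 0.0527 and its adjusted p 0.279. *Bad* lies on the plus strand of chromosome 19 at 6941861 to 6951899 and shares 524 exon bases with *Gpr137* on the opposite strand, and its FPKM did not come out as whole reads with the annotation used here.

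*Bid*, whose protein is cleaved by caspase-8 and so links death receptors to the mitochondrion, was measured at 4.67, 6.36 and 5.59 FPKM in WT and at 3.78, 5.44 and 5.52 FPKM in CKO. The groups overlapped through the low WT replicate 1. The difference was -0.18 (SE 0.19, 95% interval -0.62 to 0.26, adjusted p = 0.863), and it was negative within each replicate number, at -0.30, -0.22 and -0.02. The gene lies on the minus strand of chromosome 6 at 120891930 to 120916853, with 628 exon bases shared with *Bcl2l13*, another family gene, on the opposite strand.

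**Figure D3:**
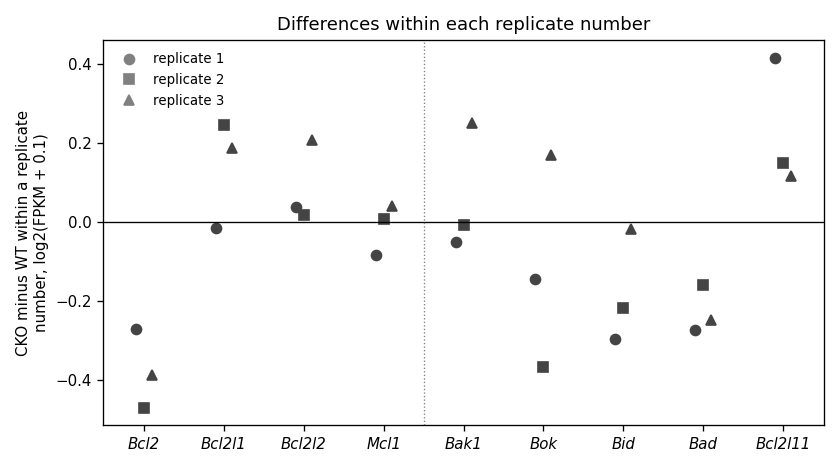
Difference of log2(FPKM + 0.1) between the CKO and the WT library of the same replicate number, for the 4 survival members (left of the dotted line) and the 5 death members (right). All 3 points lie below 0 for *Bcl2*, *Bid* and *Bad* and above 0 for *Bcl2l2* and *Bcl2l11*, and the points of the other members lie on both sides.

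Read by replicate number, 3 members were lower (*Bcl2*, *Bid* and *Bad*) and 2 were higher (*Bcl2l2* and *Bcl2l11*) in the CKO library of every number. Each of these sets holds both survival and death members. The share of all genes tested with the same sign in every number was not counted. Whether these counts differ from those of other genes therefore cannot be said. *Bcl2*, *Bid*, *Bad*, *Bcl2l1* and *Bok* were lowest in replicate 1 of both groups. For all of these but *Bcl2*, the SD between the libraries of a group was larger than the difference between the group means. On the log2 scale this SD was 0.22 to 0.30 for *Bid*, 0.28 to 0.33 for *Bad*, 0.21 to 0.35 for *Bcl2l1* and 0.20 to 0.26 for *Bok*.

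To compare the survival with the death members within a library, the mean log2(FPKM + 0.1) of the death members was subtracted from that of the survival members. This balance was 0.332, 0.232 and 0.393 in WT replicates 1 to 3 and 0.319, 0.303 and 0.351 in CKO replicates 1 to 3. All CKO values lay within the WT range. The group means were 0.319 ± 0.081 and 0.324 ± 0.024 (mean ± SD, n = 3 per group), a difference of 0.0052, which is smaller than the pooled SD of 0.060 between libraries. No p is given, since the members were chosen with results of these data known.

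The ratio of summed FPKM showed the same for the 9 members. Both measures leave out other death genes of the family. Among these are *Bax*, *Bbc3* and *Pmaip1*, with higher means in CKO, and *Bmf*, with a lower mean, all described below. Survival members summed to 89.2, 89.8 and 90.2 FPKM in WT and to 84.6, 92.7 and 94.1 FPKM in CKO, and death members to 48.8, 52.9 and 46.2 FPKM in WT and to 47.0, 49.9 and 49.9 FPKM in CKO. The ratio was 1.83 ± 0.128 in WT and 1.85 ± 0.043 in CKO. Since *Mcl1* carries most of the survival sum, the ratio was also taken without it, and it was 0.460 ± 0.057 in WT and 0.490 ± 0.075 in CKO, with overlap.

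**Figure D4:**
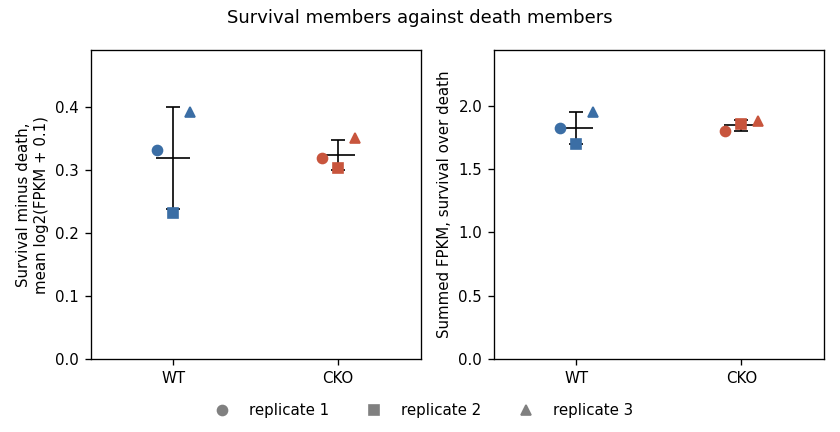
Survival against death members in each library, as the difference of mean log2(FPKM + 0.1) (left) and as the ratio of summed FPKM (right), with the marker shape giving the replicate number and black bars the mean ± SD (n = 3). The CKO libraries lie within the range of the WT libraries in both panels.

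Levels were also compared within single pairs of a survival and a death member. The ratio of *Bcl2* to *Bcl2l11* was 0.506, 0.686 and 0.655 in WT and 0.311, 0.440 and 0.457 in CKO, without overlap. This is the pair that combines the largest negative and the largest positive difference of the members, and it was picked after the values were seen, so it is given with no test. The ratio of *Mcl1* to *Bcl2l11* was 13.5, 14.3 and 13.0 in WT and 9.51, 13.0 and 12.3 in CKO, with overlap. The ratio of *Bcl2l1* to *Bak1* was 0.692 ± 0.156 in WT and 0.732 ± 0.179 in CKO, also with overlap.

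Within the survival members, *Bcl2l1* was 5.46, 6.05 and 5.30 times the level of *Bcl2* in WT and 6.56, 10.1 and 7.97 times in CKO. All CKO ratios lay above all WT ratios. This ratio was also chosen after the values were seen.

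The other genes of the pathway were read from a list of 22, which holds the p53 targets of the family, more distant relatives, mitochondrial channel genes and the ubiquitin enzymes that act on MCL1. Of these, 15 passed the filter on low values. The remaining 7, named because the filter left them out (*Hrk*, *Bcl2a1a*, *Bcl2a1b*, *Bcl2a1d*, *Bcl2l10*, *Bcl2l14* and *Bcl2l15*) had mean levels of at most 0.148 FPKM, *Bcl2l10* being listed at 0 in all libraries. Of the 15, 13 had a higher and 2 a lower mean in CKO, with a median difference of 0.12, beside 6264 higher of the 12305 genes tested and a median of 0.0048. An unadjusted p under 0.05 was found for 4 of the 15, beside 8.31% of all genes. None passed the adjusted threshold in this fit.

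With the replicate number as a block, 3 of the 15 passed an adjusted p of 0.05, all higher in CKO, beside 0 of the 9 members and 2.81% of all genes tested. They were the p53 targets *Bax*, *Bbc3* and *Pmaip1*. *Bax*, which encodes the effector partner of BAK, was measured at 19.9, 27.9 and 22.2 FPKM in WT and at 30.5, 44.8 and 41.2 FPKM in CKO, a difference of 0.73 (SE 0.19, adjusted p = 0.345 without and 0.0040 with the block), and it shares 192 exon bases with *Gm45808* on the same strand. *Bbc3*, which encodes the BH3-only protein PUMA, was measured at 3.81, 4.01 and 2.94 FPKM in WT and at 7.10, 4.97 and 6.22 FPKM in CKO, a difference of 0.75 (SE 0.18, adjusted p = 0.310 and 0.0197).

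*Pmaip1*, which encodes NOXA, a BH3-only protein that binds MCL1, was measured at 32.1, 34.2 and 35.4 FPKM in WT and at 45.5, 43.1 and 49.2 FPKM in CKO, a difference of 0.44 (SE 0.11, adjusted p = 0.345 and 0.0457). Like that of *Bad*, the FPKM of *Pmaip1* did not come out as whole reads with the annotation used here. None of these 3 genes had a CKO value at or below its highest WT value, and 14.5% of all genes tested did not overlap in either direction. Since these 3 were chosen with earlier results of these data known, this adds no separate support. *Bak1* and *Bok*, the effectors among the members, had 95% intervals that end at 0.35 and 0.29, below the difference of *Bax*, 0.73, whose own interval is 0.29 to 1.17. The difference between these genes was not tested.

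**Figure D5:**
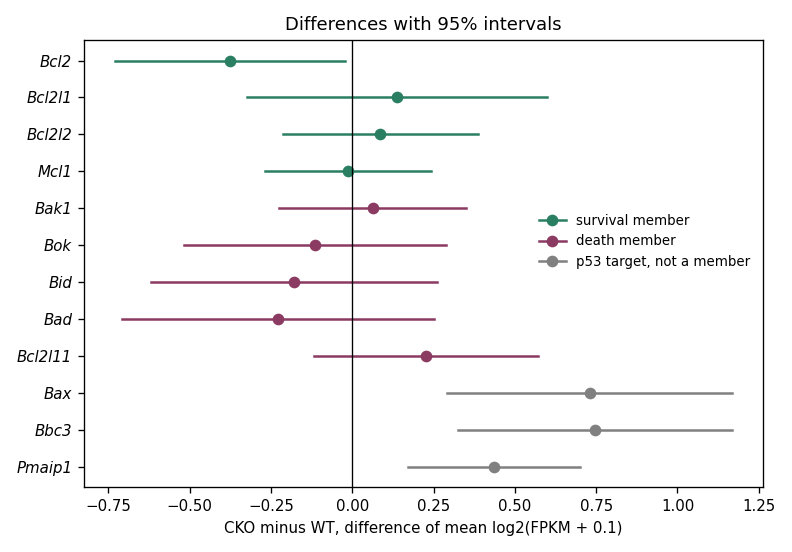
CKO minus WT difference of mean log2(FPKM + 0.1) with its 95% interval from limma (3 against 3 libraries) for the 4 survival members (green), the 5 death members (purple) and the 3 p53 targets *Bax*, *Bbc3* and *Pmaip1* (grey). The intervals of 8 of the 9 members include 0, that of *Bcl2* ends at -0.02, and the p53 targets lie between 0.44 and 0.75.

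Set against *Bax* in the same library, *Bcl2* was 0.131, 0.112 and 0.151 times its level in WT and 0.070, 0.050 and 0.062 times in CKO. The groups did not overlap. This follows from *Bcl2* being lower and *Bax* higher in CKO, each without overlap, so the ratio adds nothing to those values. *Bmf*, which encodes a BH3-only protein tied to the cytoskeleton, was named after its values were seen as the one gene of the list with an unadjusted p under 0.05 and a lower level in CKO. It was measured at 7.85, 10.1 and 9.19 FPKM in WT and at 6.78, 7.65 and 7.01 FPKM in CKO, a difference of -0.33 (SE 0.13, adjusted p = 0.564), close to that of *Bcl2*.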

How the data were processed

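RNA-seq of E11.5 limb buds from 3 WT and 3 CKO replicates was analysed. The values, deposited by the authors as FPKM in 1 table of 22040 genes, came from libraries made with a stranded mRNA kit. The aligner, counter and strand setting of this table are not stated one by one. The submitters' processing notes name cutadapt 2.5, HISAT2 2.1.0, Bowtie2 2.11.1, featureCounts 1.6.3 and mm10 for the whole series. With the exon lengths of GENCODE vM21 (GRCm38), which held 99.5% of the identifiers, FPKM came out as whole reads within 0.1 reads in all libraries for 92.6% of these genes.

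Genes whose FPKM averaged 0.5 or more were tested as log2(FPKM + 0.1) with limma 3.58.1 (eBayes with trend) in R 4.3.3, with Benjamini-Hochberg adjustment over all of them, 95% intervals and a threshold of 0.05. P values measure the spread between these libraries, which may be partly technical. The fit was tested on simulated data with planted differences larger than any seen among the members, so that test does not speak to differences of their size. Single members were also compared with the exact two-sided permutation test (scipy), and promoter windows came from RefSeq. The members, the list of 22 other genes and the marker lists (limb mesenchyme, erythroid, macrophage, endothelial, ectoderm, muscle precursor and neural crest) were chosen with earlier results of these data known. The genes named are all members, *Hnrnpk*, *Bax*, *Bbc3* and *Pmaip1*, other genes of the list of 22 past the adjusted threshold with or without the block, and the 3 genes most like *Bcl2*, genes of that list left out by the filter, and otherwise the text says that a gene was chosen with its values in view.

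Replicate numbers are shared between the groups. Deviations from the group means correlated across genes by 0.64, 0.44 and 0.27 for libraries of the same number, each over 0.1. The pairing by number was used for the differences within a replicate number and for fits with the replicate block. The main limma fit, its intervals and the permutation test treated the libraries as unpaired. WT replicate 2 and CKO replicate 3 correlated by 0.49, so the pairing rests mainly on replicate 1, and no source says what a number stands for. Alternatives tried were a pseudocount of 0.5 or 1, no filter, a filter at a mean of 1 FPKM, median-ratio scaling, quantile normalization, rescaling without the erythroid list, eBayes without trend, an ordinary linear model, the replicate block, voom on recovered reads and each library left out in turn, with replicates 2 and 3 alone and voom with the block added after seeing the data. The samples of the series' other assays were not analysed here.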

Additional observations from a re-analysis of the deposited data

How the results depend on the processing

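No member passed the adjusted threshold under any of the 19 alternatives, and the difference between survival and death members stayed within 1 pooled SD of the reported value in all of them. Directions held in all 19 for *Bcl2*, *Bcl2l1*, *Bok*, *Bid*, *Bad* and *Bcl2l11*. Settings that changed only the filter or the variance estimate, or added the block to the main fit, leave every difference as it was. *Mcl1*, whose reported difference is -0.01, was at 0.0031 with median-ratio scaling and 0.023 in replicates 2 and 3 alone, and between -0.033 and 0.014 with a library left out. *Bak1* was at -0.043, and *Bcl2l2* at -0.015, when libraries were rescaled without the erythroid list, and *Bak1* lay between -0.035 and 0.14 with a library left out. The members without overlap numbered 2 with quantile normalization (*Bcl2* and *Bcl2l11*), 3 in replicates 2 and 3 alone (*Bcl2*, *Bcl2l1* and *Bid*), and 1 to 3 with a library left out, *Bcl2* being among them each time. The share of all genes without overlap was 14.1%, 58.5% and 18.0% to 42.0% in these settings. The settings with replicates 2 and 3 alone and with voom and the replicate block were chosen after seeing the data.

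With the replicate block, 346 genes in place of 8 passed the adjusted threshold over all genes, among them 3 of the list of 22, *Bax*, *Bbc3* and *Pmaip1*, and *Tbx5* of the mesenchyme markers, and the block changed no other call reported here. Voom with the replicate block also called 3 of that list and 651 genes in all, and replicates 2 and 3 alone called 5, with *Bmf* and *Usp9x* (named after their values were seen) besides, and 1851 in all. *Hnrnpk* passed the threshold in these last 2 settings, at -0.51 and -0.45. With no filter on low values and with the ordinary linear model, 0 genes in all passed, although 1705 and 1108 had an unadjusted p under 0.05, and with rescaling without the erythroid list 4 passed. With a library left out, 1 to 23 genes passed, the largest number without CKO replicate 1. The depth gave the members at least 136 reads in each library, and 3 libraries per group limit the precision. The causes of these changes were not tested.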
